A study of Mus musculus with 4 samples.

Results

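The lysyl oxidase family was described in RNA from Leydig cells, which make androgen between the seminiferous tubules, of C2orf74 knockout (KO) and wild-type (WT) mice. Its 5 members, Lox, Loxl1, Loxl2, Loxl3 and Loxl4, were taken by gene name from the 27357 Ensembl gene IDs of the deposited tables, and all 5 were found. Each genotype had 2 libraries of testicular Leydig cells from male mice, and all groups shared a high-fat diet, begun at 8 weeks of age and lasting 12 weeks. The labels do not give the allele, the tissue in which C2orf74 was removed, the strain, or whether each library is a different animal; a p-value here reflects library spread alone, and that spread can be technical. The members were chosen by family name, but the family itself was put forward with its KO and WT levels in these libraries in view. The KO against WT differences of the members are therefore a description, and the fit's output for them is given as part of it, supporting nothing.

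Lysyl oxidases are secreted copper enzymes that oxidise lysine side chains of collagen and elastin, and the aldehydes so formed condense into the covalent cross-links that make matrix fibres stiff and insoluble. Lox and Loxl1 are made as proenzymes that are cut outside the cell, and Loxl1 is known for elastic fibre upkeep in mice. Loxl2, Loxl3 and Loxl4 carry scavenger receptor cysteine-rich domains in front of the catalytic domain, and Loxl2 is known for cross-linking basement membrane collagen IV. In many tissues the transcripts come from fibroblasts, smooth muscle and endothelium, and transforming growth factor beta (TGF-beta) and low oxygen are known to raise Lox.

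The depth recovered from the values was 15694389 and 19764004 reads in KO and 13847807 and 15817093 reads in WT. The mouse gene of C2orf74, 1700093K21Rik, was at 0 reads in both KO libraries and at 0 and 4 reads in the WT libraries. A count of 0 allowed up to 0.0952 and 0.0756 RPKM (read number per length of exon and per depth) in KO replicates 1 and 2 and 0.108 RPKM in WT replicate 1, by counting error, so the targeted gene could not check the labels at this depth. All 10 listed Leydig cell markers passed the filter, at very unlike levels. Cyp11a1, which starts steroid synthesis from cholesterol, had 360 and 299.7 RPKM in KO, against 415 and 402 in WT. Star, which moves cholesterol into mitochondria, had 148 and 108 RPKM in KO, against 201 and 142 in WT. Cyp17a1, another of the 10, was low, at 2.12 and 1.47 RPKM in KO, against 0.900 and 1.90 in WT.

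The members are told apart by sequence. The copper-binding stretch of 33 coding bases was searched on the sense strand of the longest GENCODE M21 transcript of each member, and each held 1 match, in frame. The stretch is shown for Loxl2, Loxl3 and Loxl4, with its 4 histidine codons in capitals, because these codons mark the catalytic copper site that every member carries. Which of the 4 histidines bind the copper was not examined.
Loxl2: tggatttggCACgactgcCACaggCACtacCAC
Loxl3: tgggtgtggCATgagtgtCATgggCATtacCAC
Loxl4: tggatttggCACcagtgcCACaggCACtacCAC
In GRCm38 the Loxl2 stretch lies on the plus strand in exons 10 and 11 (chr14:69682316-69682338 and chr14:69689028-69689037). The Loxl3 stretch lies on the plus strand in exons 10 and 11 (chr6:83049995-83050017 and chr6:83050116-83050125), and the Loxl4 stretch lies on the minus strand in exons 11 and 12 (chr19:42599877-42599899 and chr19:42598807-42598816). In all 5 members the exon junction fell after base 23 of the stretch. Loxl4 was identical to Loxl2 at 31 of 33 bases and Loxl3 at 25, while Lox was identical to Loxl2 at 23 bases. Lox and Loxl1 differed at 1 base, with 32 identical. Over whole transcripts the longest identical run between 2 members was 32 bases, between Lox and Loxl1, and the other 9 of the 10 pairs shared runs of 11 to 28 bases. The read length is not given in the sources used here.

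Lox, the founding member of the family (ENSMUSG00000024529, chromosome 18, 52516067 to 52529867, minus strand, GRCm38), was the most abundant lysyl oxidase and the one with the largest difference. It had 59.4 and 57.3 RPKM in the KO libraries, against 111 and 106 RPKM in the WT libraries. Both KO libraries lay far below both WT libraries, and the replicates of each genotype lay close together. The means were 58.3 ± 1.53 RPKM in KO and 109 ± 3.79 in WT (SD, n = 2 each), so the KO mean was 0.538 times the WT mean. The reads behind these levels were 4486 and 5443 in KO and 7407 and 8053 in WT, and the exact 95% counting intervals ran from 55.7 to 61.2 RPKM over the KO libraries and from 104 to 114 RPKM over the WT libraries. Counting intervals cover counting error only, since reads are not independent molecules. In a bulk preparation, fewer cells of a type that makes Lox and less Lox RNA per cell cannot be told apart. An antisense gene, AC161119.1, overlaps Lox by 1207 bases and was not analysed here, and the strand setting of the counting is not given in the sources used here.

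On the log2(RPKM + 1) scale Lox differed by -0.88 ± 0.08 (SE) between KO and WT, by -0.86 in KO replicate 1 and by -0.91 in KO replicate 2 relative to the WT mean. Among the 2604 genes with a mean of at least 20 RPKM, a level set after its value was seen, this was the 9th lowest change. Lox did not pass the false discovery rate (FDR) of 0.05 over the 12391 genes tested with limma (adjusted p = 0.124, the smallest of any gene and shared by 32 genes). With a library left out, limma gave Lox an adjusted p of 0.0224 (KO replicate 1 out) and 0.0345 (KO replicate 2 out), against 0.576 without WT replicate 1 and 0.445 without WT replicate 2. In each of these fits the spread came from the pair that was left, and the lone library was assumed to vary like it. The log2 change of Lox stayed between -0.92 and -0.85 over its 12 alternatives.

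**Figure D1:**
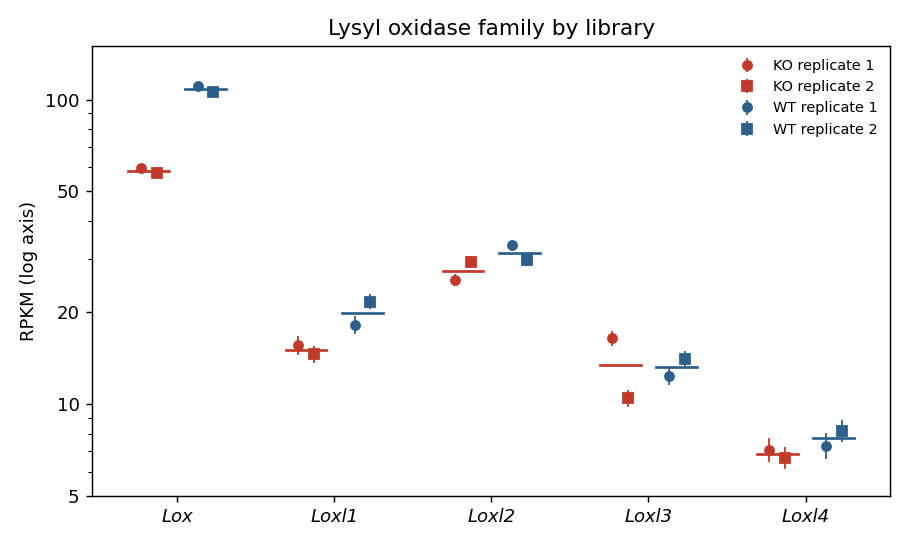
RPKM of each lysyl oxidase (log axis) in the KO libraries (red, left) and the WT libraries (blue, right), with circles for replicate 1, squares for replicate 2, vertical bars for the 95% counting interval and horizontal lines for the genotype mean. Lox lay at 59.4 and 57.3 RPKM in KO, below 111 and 106 in WT, while the Loxl3 libraries of KO lay on both sides of WT.

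Loxl1, the member tied to elastic fibres (ENSMUSG00000032334, chromosome 9, 58287738 to 58313186, minus strand), also lay lower in both KO libraries, by less. It had 15.6 and 14.5 RPKM in KO, against 18.2 and 21.7 RPKM in WT. The groups did not overlap, but the WT libraries differed from each other by more than the KO libraries did. Loxl1 averaged 15.1 ± 0.727 RPKM in KO and 19.9 ± 2.51 in WT (SD, n = 2 each). Its log2 change was -0.38 ± 0.11 (SE). Leaving out WT replicate 1 gave -0.50 and leaving out WT replicate 2 gave -0.25.

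Loxl2, the collagen IV cross-linker (ENSMUSG00000034205, chromosome 14, 69609068 to 69695834, plus strand), was the second most abundant member. It had 25.6 and 29.3 RPKM in KO, against 33.2 and 29.6 RPKM in WT. KO replicate 2 and WT replicate 2 were almost level, 0.298 RPKM apart, and the KO libraries differed from each other by more than counting error (95% counting intervals 24.5 to 26.7 and 28.3 to 30.4 RPKM). The means were 27.4 ± 2.66 RPKM in KO and 31.4 ± 2.51 in WT (SD, n = 2 each), a difference of the size of the spread between replicates. The log2 change of Loxl2 was -0.19 ± 0.11 (SE). Without KO replicate 1 the log2 change of Loxl2 was -0.09.

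Loxl4, the least abundant member (ENSMUSG00000025185, chromosome 19, 42593982 to 42612813, minus strand), had 7.06 and 6.65 RPKM in KO, against 7.28 and 8.16 RPKM in WT. KO replicate 1 lay only 0.222 RPKM below WT replicate 1, within the counting intervals of both. Its log2 change was -0.15 ± 0.09 (SE), from 467 and 554 reads in KO and 425 and 544 in WT. Without WT replicate 2 the log2 change of Loxl4 was -0.08, and without WT replicate 1 it was -0.22.

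Loxl3, a family member needed for palate and spine development in mice (ENSMUSG00000000693, chromosome 6, 83034173 to 83052562, plus strand), had the highest and the lowest of its 4 values within KO. It had 16.5 and 10.5 RPKM in KO, against 12.4 and 14.1 RPKM in WT. KO replicate 1 lay above both WT libraries and KO replicate 2 below both, and the 95% counting intervals of the KO libraries (15.5 to 17.4 and 9.80 to 11.1 RPKM) did not overlap. The means were 13.5 ± 4.25 RPKM in KO and 13.2 ± 1.21 in WT (SD, n = 2 each), and the log2 change was -0.01 ± 0.21 (SE). Set against the WT mean, KO replicate 1 stood at 0.30 and KO replicate 2 at -0.31. Loxl3 overlaps Htra2, a mitochondrial protease gene on the other strand, by 1297 bases, so reads of the pair may be mixed there. Htra2 had 11.7 and 11.3 RPKM in KO, against 13.9 and 13.6 in WT.

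Over the family, 0 of 5 members passed an FDR of 0.05 in limma, as did 0% of all genes tested. In 4 members both KO libraries lay below both WT libraries, which held for 25% of genes, and in 0 members both lay above (19.7% of genes). The log2 change was below 0 in all 5 members, with Loxl3 at -0.01, which turned to 0.03 under quantile normalization and 0.01 under trimmed-mean rescaling, and it was below 0 in 53.8% of genes. The median over the members was -0.19, against -0.02 over all genes tested. For any 1 member a permutation of 2 against 2 libraries cannot give an exact 2-sided p below 0.333.

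**Figure D2:**
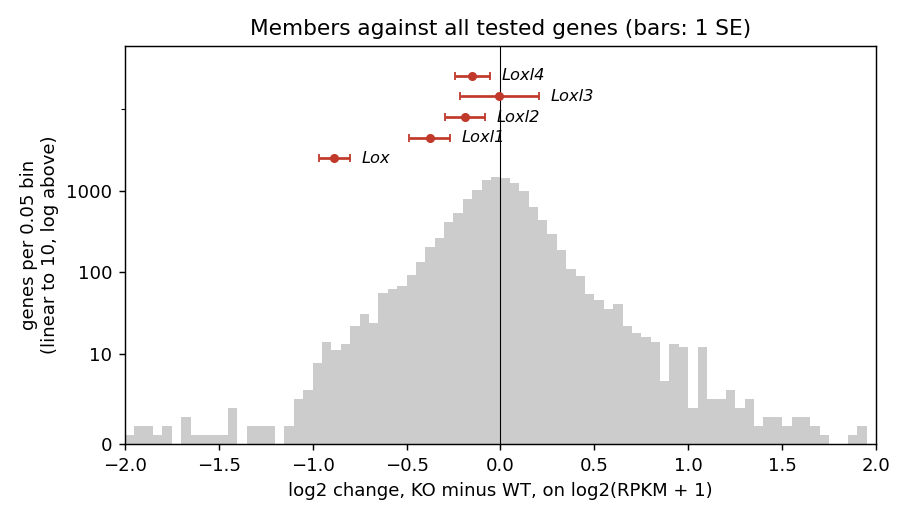
Log2 change between KO and WT of the 5 members (red points, bars 1 SE, placed at arbitrary heights above the histogram) over a histogram of all 12391 genes tested (grey, count axis linear to 10 and logarithmic above). Lox at -0.88 lay in the lower tail with 67 genes at or below its value, while Loxl2, Loxl3 and Loxl4 lay within the bulk; 5 genes fall outside the plotted range of -2 to 2.

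The summed level of the 5 lysyl oxidases was 124 and 118 RPKM in KO, against 182 and 179 RPKM in WT. The KO mean was 0.670 times the WT mean, and Lox made up 84.2% of the difference between the means. Without Lox the sum was 64.7 and 61.0 RPKM in KO, against 71.0 and 73.6 in WT, 0.869 times as much. Lox held 47.9% and 48.4% of the summed level in KO, against 61.0% and 59.0% in WT. The share of Loxl2 was 20.6% and 24.8% in KO, against 18.2% and 16.5% in WT. Per length Lox was 2.33 and 1.95 times as abundant as Loxl2 in KO, against 3.35 and 3.57 times in WT.

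In level per length the order was Lox, Loxl2, Loxl1, Loxl3 and Loxl4 in 3 libraries. In KO replicate 1 Loxl3 stood above Loxl1. Lox and Loxl2 were separated in every library, and Loxl4 lay below all other members in every library. Loxl1 and Loxl3 were neighbours whose ranges over the libraries overlapped, from 14.5 to 21.7 RPKM for Loxl1 and from 10.5 to 16.5 RPKM for Loxl3.

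**Figure D3:**
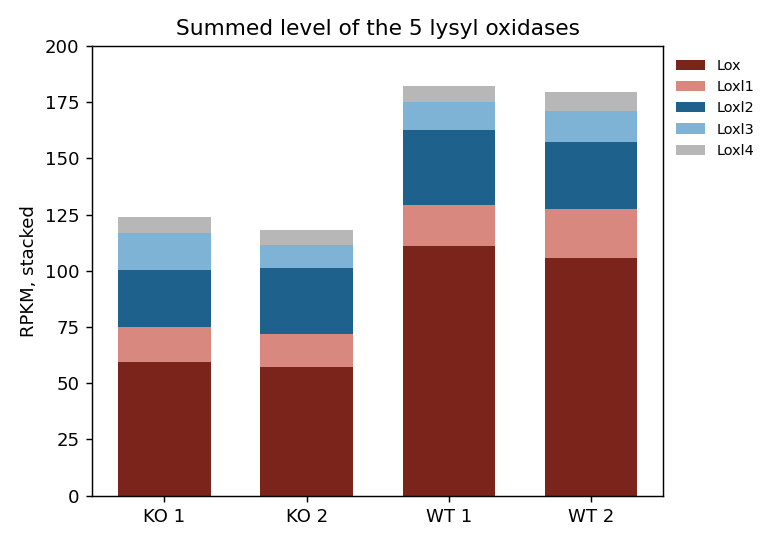
Stacked RPKM of the 5 members in each library, KO on the left and WT on the right. The total was 124 and 118 RPKM in KO and 182 and 179 in WT, and the dark red Lox segment holds most of the difference.

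The substrates of the family were mostly lower in KO as well, none past the FDR. Of 12 genes of fibrillar collagens and elastin 7 were tested, of which 7 were lower and 0 higher, 6 of them at an unadjusted p under 0.05 (7.42% of all genes tested were lower at that p and 4.33% higher), with a median log2 change of -0.36. Col5a3, 1 of the 6, passed the filter only through its WT libraries. Col1a1, a chain of type I collagen, had 83.3 and 69.9 RPKM in KO, against 100.1 and 121 in WT (log2 change -0.53 ± 0.14 SE, limma adjusted p = 0.316). Col5a2, of the type V collagen inside type I fibrils, had 31.5 and 27.1 RPKM in KO, against 37.2 and 38.3 in WT, and Col11a1 had 14.1 and 13.7 in KO, against 17.9 and 16.8 in WT. Col5a3, another type V chain, had 0.618 and 0.743 RPKM in KO, against 1.35 and 1.88 in WT. Eln, the elastin gene, was below the filter, at 0.614 and 0.431 RPKM in KO and 0.687 and 0.820 in WT. Col3a1, another fibrillar chain, had a log2 change of -0.11.

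Collagen IV, the basement membrane substrate of Loxl2, had a summed level of 489 to 617 RPKM in KO and 700.4 to 756 in WT. Col4a1 had 343 and 275 RPKM in KO, against 411 and 385 in WT, and its partner chain Col4a2 had 226 and 178 in KO, against 292 and 268 in WT (log2 change -0.48 ± 0.15 SE, limma adjusted p = 0.353). Of the 6 collagen IV genes, 5 were lower and 1 higher, with 2 lower at an unadjusted p under 0.05 (7.42% of all genes tested). Col4a5 had 37.0 and 27.0 RPKM in KO, against 41.3 and 35.3 in WT, and Col4a6 had 7.18 and 4.56 in KO, against 7.60 and 8.18 in WT. Set against the WT mean, the median log2 change of collagen IV in KO replicate 1 was -0.15 and that in replicate 2 was -0.51. Without KO replicate 2 the median of collagen IV was -0.12. The KO libraries stood further apart in collagen IV than in Lox (-0.86 and -0.91). Divided by the summed level of fibrillar collagens and elastin, Lox stood at 0.227 and 0.264 in KO, against 0.370 and 0.320 in WT. Both KO values of this ratio lay below both WT values. This was not particular to collagen. Divided by the summed level of the genes listed for copper supply, Lox stood at 0.197 and 0.217 in KO, against 0.380 and 0.361 in WT. Of the gene lists described here, only endothelial and macrophage markers gave a ratio that overlapped between the genotypes. The macrophage ratio was spread within each genotype, at 0.277 and 0.174 in KO, against 0.270 and 0.343 in WT. Since Lox itself lay lower in KO, a separated ratio says little about the list it was divided by.

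Among 14 tested genes of the elastic fibre scaffold, 12 were lower and 2 higher, 4 of them lower at an unadjusted p under 0.05 (7.42% of all genes), among them Mfap2, which passed the filter only through WT. The median log2 change was -0.16, against -0.25 without KO replicate 1 and -0.07 without KO replicate 2. Mfap5, a microfibril glycoprotein, had 1.15 and 1.06 RPKM in KO, against 2.25 and 2.62 in WT (log2 change -0.71 ± 0.13 SE, limma adjusted p = 0.204). Ltbp4, which binds latent TGF-beta and helps place elastin, had 6.27 and 7.15 RPKM in KO, against 8.53 and 10.6 in WT. Ltbp1, another latent TGF-beta binder, had 4.31 and 4.73 in KO, against 5.71 and 6.40 in WT. Mfap2, another microfibril glycoprotein, had 0.737 and 0.501 in KO, against 1.19 and 1.93 in WT. Efemp2 (fibulin-4), which brings Lox to tropoelastin, had 70.4 and 60.1 RPKM in KO, against 68.9 and 73.5 in WT, and Fbln5 (fibulin-5), which works with Loxl1 in mice, had 4.31 and 3.02 in KO, against 3.55 and 4.03 in WT. For both fibulins the genotypes overlapped.

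Of 11 listed genes that process or dock the proenzymes 5 were tested, 4 lower and 1 higher. At an unadjusted p under 0.05, 1 of them was lower (7.42% of all genes tested). Thbs1, thrombospondin-1, a matrix protein that binds Lox, had 35.8 and 32.5 RPKM in KO, against 55.1 and 59.2 in WT (log2 change -0.73 ± 0.09 SE, limma adjusted p = 0.132). Bmp1, the protease that removes the propeptide of Lox, had 21.7 and 21.3 RPKM in KO, against 21.1 and 19.6 in WT (log2 change 0.07). Fn1, fibronectin, which holds the proenzyme near the protease, had 3.70 and 6.26 in KO, against 6.48 and 7.34 in WT, and Adamts2, a procollagen protease, had 6.16 and 5.81 in KO, against 6.54 and 6.64 in WT.

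Collagen-modifying and folding enzymes were lower in 12 and higher in 3 of 15 tested genes, with 3 lower at an unadjusted p under 0.05 (7.42% of all genes tested). The median log2 change was -0.15, against -0.25 without KO replicate 1 and -0.06 without KO replicate 2. The prolyl 3-hydroxylase P3h1 had 15.2 and 14.4 RPKM in KO, against 20.4 and 18.2 in WT, and P3h3 had 2.77 and 2.43 in KO, against 3.66 and 3.60 in WT. The collagen chaperone Serpinh1 had 174 and 151 RPKM in KO, against 190.0 and 211 in WT. P4ha1, a prolyl 4-hydroxylase subunit, had 51.2 and 51.0 in KO, against 59.1 and 57.0 in WT. Plod2, which hydroxylates the telopeptide lysines that lysyl oxidases act on, was higher than WT in KO replicate 2 only, at 120.1 and 200.2 RPKM in KO, against 134 and 120.2 in WT.

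Of 8 tested genes listed for copper supply 6 were higher and 2 lower (53.8% of all genes tested were lower). At an unadjusted p under 0.05, 0 of them passed (7.42% of all genes tested were lower at that p and 4.33% higher). The median log2 change was 0.09 (0.05 without KO replicate 2 and 0.04 without WT replicate 2), while the summed level in KO was 0.965 times that in WT. Slc33a1, among the 6, is not a copper transporter gene (log2 change 0.06, and -0.06 in KO replicate 1 against the WT mean). The copper importer Slc31a1 had 26.3 and 32.1 RPKM in KO, against 26.4 and 23.1 in WT, and the Golgi copper pump Atp7a, which loads lysyl oxidases, had 7.62 and 8.05 in KO, against 7.003 and 7.34 in WT. The copper chaperone Atox1 had 136 and 104 in KO, against 135 and 134 in WT, and Commd1, a copper-handling protein, had 1.99 and 1.30 in KO, against 1.07 and 1.41 in WT. Amine oxidases outside the family split: the flavin enzyme Maoa had 18.5 and 21.1 RPKM in KO, against 28.6 and 25.7 in WT (log2 change -0.44 ± 0.10 SE), and its paralog Maob had 190.1 and 204 in KO, against 154 and 138 in WT (0.43 ± 0.11), with limma adjusted p-values of 0.277 and 0.285. The copper amine oxidases Aoc1 (2.02 and 1.09 RPKM in KO, against 1.20 and 0.990 in WT) and Aoc2 (2.055 and 1.93 in KO, against 2.10 and 2.41 in WT) were low in all libraries.

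**Figure D4:**
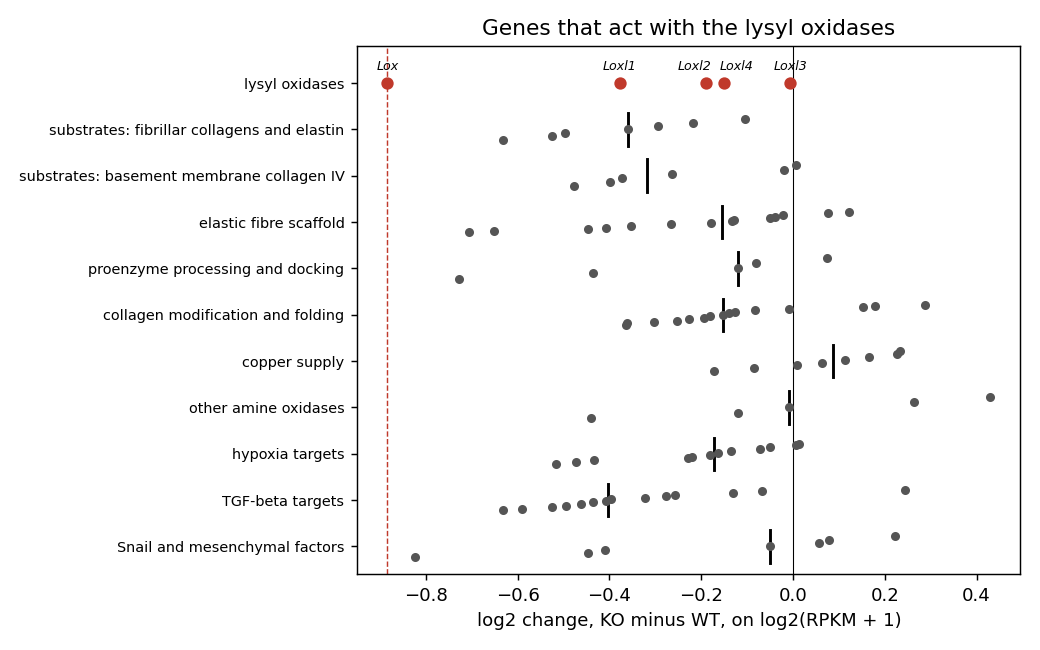
Log2 change between KO and WT of each tested gene in 10 lists of genes that act with the lysyl oxidases or are known to respond with them (grey points, black bar the median of the list), with the 5 members on top in red and a dashed line at the Lox value. No tested gene of the 10 lists reached the Lox value of -0.88 on this scale, but Mfap2, Col5a3, Mfap5 and Snai1 passed Lox with a pseudocount of 0.1.

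Of the TGF-beta targets and ligands, 13 of 14 tested genes were lower and 1 higher, with a median log2 change of -0.40. At an unadjusted p under 0.05, 7 of the 14 were lower (7.42% of all genes tested). Smad7, the inhibitory Smad, had 11.6 and 12.7 RPKM in KO, against 17.2 and 17.9 in WT (log2 change -0.50 ± 0.09 SE, limma adjusted p = 0.195), and the ligand gene Tgfb1 had 5.31 and 6.81 in KO, against 9.18 and 8.19 in WT. Col1a1 is in this list too. Of 12 tested hypoxia targets 10 were lower and 2 higher, with a median of -0.17. At an unadjusted p under 0.05, 1 of the 12 was lower (7.42% of all genes tested). Slc2a1, a glucose transporter, had 10.8 and 10.6 RPKM in KO, against 15.8 and 14.6 in WT, and Vegfa, the endothelial growth factor, had 4.13 and 6.87 in KO, against 8.29 and 7.89 in WT. Ldha, lactate dehydrogenase, had 106 and 115 in KO, against 128 and 129 in WT.

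Snai1, a transcription factor that Loxl2 and Loxl3 are known to bind in cultured cells, had 6.88 and 4.93 RPKM in KO, against 10.6 and 11.7 in WT (log2 change -0.82 ± 0.16 SE, limma adjusted p = 0.204). The intermediate filament gene Vim had 267 and 210 RPKM in KO, against 316 and 330 in WT, and the cadherin Cdh2 had 9.50 and 12.4 in KO, against 15.1 and 14.4 in WT. Snai2 had 1.66 and 2.07 in KO, against 1.56 and 1.34 in WT. Of 7 tested genes in this list 4 were lower and 3 higher, with 3 lower at an unadjusted p under 0.05 (7.42% of all genes tested). The median was -0.05. It was -0.16 without KO replicate 1, -0.08 without WT replicate 2 and -0.02 without KO replicate 2 or WT replicate 1. Across the 10 lists, which were chosen with earlier results known, 68 of 89 tested genes were lower, against 53.8% of all genes tested. On the log2(RPKM + 1) scale 0 of the 89 lay at or below Lox, but that scale shrinks low genes. As plain ratios of mean RPKM, KO over WT, Mfap2 (0.396), Col5a3 (0.421), Mfap5 (0.453) and Snai1 (0.532) lay below Lox (0.538). With a pseudocount of 0.1 their log2 changes were -1.19 for Mfap2, -1.12 for Col5a3, -1.07 for Mfap5 and -0.92 for Snai1, against -0.89 for Lox.

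Markers of other testis cells also differed in level between KO and WT, none past the FDR and not all in the direction of Lox, and their part in the Lox difference was not tested. Of 11 peritubular myoid and smooth muscle markers 9 were tested, and 9 were lower (53.8% of all genes tested were), with a median log2 change of -0.48. At an unadjusted p under 0.05, 7 were lower (7.42% of all genes tested). The 2 untested markers reached at most 0.693 RPKM. The summed level of the list was 183 to 201 RPKM in KO and 233 to 270 in WT, of which Acta2, smooth muscle actin, made up 86.3% to 90.0%. Des, the muscle filament gene, had 2.99 and 3.06 RPKM in KO, against 5.75 and 5.996 in WT (log2 change -0.77 ± 0.09 SE, limma adjusted p = 0.124). The pericyte gene Rgs5 had 2.00 and 2.59 in KO, against 4.23 and 6.87 in WT, Mcam had 1.14 and 0.906 in KO, against 1.92 and 2.30 in WT, and Myh11, smooth muscle myosin, had 1.71 and 1.65 in KO, against 2.48 and 2.90 in WT. Without Acta2 the sum was 18.3 to 20.03 RPKM in KO and 27.7 to 36.9 in WT.

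Of 11 endothelial markers 5 were tested, and all of them were lower. For 3 of these, Esam and Cldn5 among them, the filter was passed only through WT, which fixed their direction in advance. Eng and Cdh5, which passed it in all 4 libraries, were lower too (53.8% of all genes tested were lower). The untested markers reached at most 1.41 RPKM. The sum of the 11 was 18.7 to 22.05 RPKM in KO and 32.6 to 37.4 in WT, and Eng and Cdh5 made up most of it. Cldn5, a junction gene, had 0.225 and 0.930 RPKM in KO, against 2.40 and 3.40 in WT, Esam 0.845 and 0.900 in KO, against 2.12 and 2.32 in WT, Eng 7.92 and 6.69 in KO, against 10.3 and 11.2 in WT, and Cdh5 11.3 and 6.96 in KO, against 13.2 and 13.6 in WT. Lox was more abundant per length than the 11 endothelial markers together in all 4 libraries. The ratio of Lox to this sum was 2.70 and 3.06 in KO, against 3.41 and 2.83 in WT, and it overlapped between the genotypes.

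Of 10 fibroblast markers 5 were tested, 4 higher and 1 lower (53.8% of all genes tested were lower). The sum of the list was 117 to 128 RPKM in KO and 99.8 to 100.1 in WT. Pdgfra, a platelet-derived growth factor receptor, had 74.6 and 60.6 RPKM in KO, against 50.1 and 52.6 in WT, Cd34 4.195 and 4.49 in KO, against 3.11 and 3.48 in WT, the transcription factor Tcf21 26.0 and 31.2 in KO, against 24.6 and 22.7 in WT, and the proteoglycan gene Dcn 11.4 and 8.12 in KO, against 8.10 and 9.44 in WT. Pdgfra and Tcf21 made up most of the sum. Of the untested markers, Dpt, a matrix protein gene, had 0.480 and 0.470 RPKM in KO, against 0.712 and 1.25 in WT, the proteoglycan gene Lum 0.182 and 0.0207 in KO, against 0.265 and 0.232 in WT, and Pi16 0.0160 and 0.0888 in KO, against 0.127 and 0.159 in WT, all in the direction of Lox. Clec3b and Thy1 were below 0.6 RPKM in every library and overlapped between the genotypes. The ratio of Lox to the fibroblast sum was 0.464 and 0.491 in KO, against 1.11 and 1.06 in WT. Leydig cell markers were higher in 7 of 10 genes and lower in 3, Insl3, Cyp11a1 and Star (53.8% of all genes tested were lower). The sum was 1826 to 1938 RPKM in KO and 1520 to 1712 in WT. The higher sum in KO rested on Hsd3b6 and Hsd3b1, and without these the rest of the list summed lower in KO. Hsd3b1 had 410.2 and 449 RPKM in KO, against 323 and 261 in WT. Hsd3b6 had 673 and 820 RPKM in KO, against 484 and 460 in WT, Prlr 103 and 124 in KO, against 76.9 and 70.3 in WT, and Hsd17b3 8.11 and 7.71 in KO, against 4.83 and 5.14 in WT. Insl3, the peptide hormone of Leydig cells, had 73.0 and 81.5 RPKM in KO, against 164 and 133 in WT.

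Macrophage markers were lower in 8 of 9 tested genes (53.8% of all genes tested were lower). At an unadjusted p under 0.05, 0 of them were lower (7.42% of all genes tested). They split the KO libraries, with a sum of 215 and 329 RPKM in KO, against 412 and 309 in WT. Cd68 had 66.8 and 97.5 RPKM in KO, against 133 and 105 in WT, Csf1r 16.2 and 21.2 in KO, against 28.5 and 21.8 in WT, C1qb 37.3 and 55.5 in KO, against 66.9 and 54.6 in WT, and C1qa 47.1 and 77.5 in KO, against 97.9 and 65.8 in WT. The mean macrophage sum in KO was 0.754 times that in WT. Lox had 59.4 and 57.3 RPKM in KO, and the part of macrophages in its difference was not tested. Sertoli and germ cell markers were low, with sums of 14.2 to 20.5 RPKM in KO and 21.6 to 22.5 in WT for the 9 Sertoli genes measured, and 12.3 to 15.2 in KO and 9.88 to 10.1 in WT for the 9 germ cell genes measured. Tsx, a Sertoli gene, was at 0 in all 4 libraries. The tested Sertoli genes were Aard (14.1 and 10.02 RPKM in KO, against 14.9 and 16.3 in WT) and Gata1 (4.21 and 1.76 in KO, against 4.41 and 3.94 in WT). The tested germ cell genes were Prm1 (1.22 and 1.08 RPKM in KO, against 0.308 and 0.404 in WT), Dazl (1.06 and 1.01 in KO, against 0.319 and 0.215 in WT) and Zbtb16 (11.6 and 9.03 in KO, against 7.64 and 8.90 in WT), and Prm1 and Dazl passed the filter only through KO. Zbtb16 made up most of the germ cell sum in every library, and the untested germ cell genes reached at most 0.808 RPKM.

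Genes listed because they respond to tissue dissociation were lower in 12 of 12 tested genes (53.8% of all genes tested), with a median log2 change of -0.29. At an unadjusted p under 0.05, 5 of the 12 were lower (7.42% of all genes tested). The part of these genes in the Lox difference was not tested. The heat shock gene Hspb1 had 9.46 and 8.10 RPKM in KO, against 23.0 and 16.1 in WT, and Ier3 had 103 and 89.0 in KO, against 156 and 127 in WT. Nr4a1, an orphan receptor, had 3.89 and 4.01 in KO, against 5.14 and 6.01 in WT, and Junb, an AP-1 subunit, had 36.9 and 31.4 in KO, against 43.4 and 47.4 in WT.

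**Figure D5:**
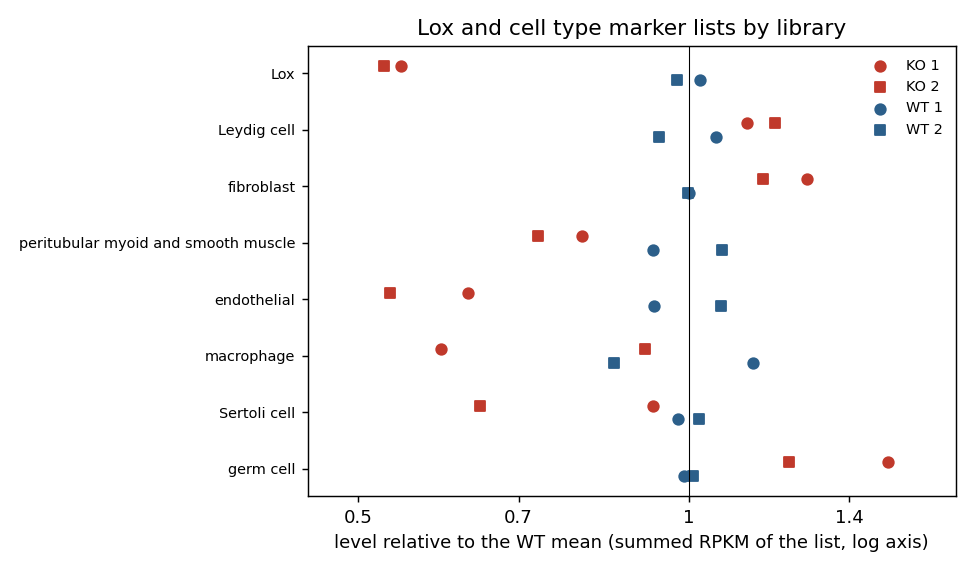
Level of Lox and summed level of 7 lists of cell type markers in each library, divided by the WT mean (log axis), with KO in red above and WT in blue below, circles for replicate 1 and squares for replicate 2. Lox and the myoid, endothelial and Sertoli sums lay lower in both KO libraries than in both WT libraries. The fibroblast, Leydig cell and germ cell sums lay higher in both. The KO libraries were apart for macrophage and Sertoli markers. The higher Leydig cell sum rested on Hsd3b6 and Hsd3b1, and the fibroblast sum was mostly Pdgfra and Tcf21.

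The genes whose 4 library values ran most like those of each member were found by the root mean square (RMS) difference of log2(RPKM + 1) values centred on each gene, over 4 libraries and 11034 named genes, as a description. Among those nearest to Lox were mt-Co3, a mitochondrially encoded oxidase subunit (15.3 and 15.4 RPKM in KO, against 28.3 and 29.4 in WT, RMS difference 0.05), and the connexin gene Gja4 (0.756 and 0.721 in KO, against 1.97 and 1.99 in WT, RMS difference 0.06). Gja4 passed the filter only through WT, and with a pseudocount of 0.1 its log2 change was -1.31, against -0.89 for Lox. Only 16 genes lay within 0.1 of Lox. By contrast 311 lay that near Loxl1 (nearest Snrpa, Dnph1 and Tes), 1637 near Loxl2 (Mbp, Golt1b and Fnip2), 211 near Loxl3 (Rac3, Gstt1 and Fam53b) and 3199 near Loxl4 (Eif4enif1, Plec and Rpl10a). With 4 libraries a like pattern is thus common, above all for Loxl2 and Loxl4. The number did not simply follow the KO against WT change, which was smallest for Loxl3 (-0.01).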

How the data were processed

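RNA of 2 KO and 2 WT libraries was extracted with Trizol, per the labels' protocols; genotype came from the labels, and replicate numbers follow deposition order and pair nothing. Per the submitters' processing notes the build was mm9; which aligner, counter, annotation and strand setting were used is not stated there. RPKM is the unit inferred for the deposited values: multiplied by summed exonic length in GENCODE M21 (GRCm38, also the source of names and coordinates), 90.4% to 90.7% of the values above 0 were whole reads within 0.01. Of the IDs, 27306 matched a symbol. Loxl1 to Loxl4 were whole at the GENCODE length. Lox, with a GENCODE length of 4778 bases, was whole in all 4 libraries at 4810 bases, the 1 length found within 1.5 times, and its reads are given at that length.

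The filter kept 12391 genes that reached 1 RPKM in 2 or more libraries. Changes are on the log2(RPKM + 1) scale and so understate those of low genes. KO and WT were tested by limma 3.58.1 under R 4.3.3 (genotype alone, empirical Bayes with trend, 2-sided, Benjamini-Hochberg FDR of 0.05; 2 residual and 3.08 prior degrees of freedom). The script was tested on simulated data. Counting intervals are exact Poisson at 95%. Python 3.11.15 ran Matplotlib 3.10.9, SciPy 1.17.1, NumPy 2.4.6 and pandas 2.3.3.

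The members, gene lists and alternatives were chosen with earlier results of these data known. From each list the up to 4 genes with the smallest p are named, and for each member the 3 genes nearest in pattern; cell type markers at 0 are named too. Some genes that this rule names are not reported here. Eln, Col3a1, Efemp2, Fbln5, Plod2, Slc33a1, Acta2, Star, Cyp11a1, Cyp17a1, Hsd3b1, Htra2, Dpt, Lum, Pi16, Clec3b and Thy1 are named beside this rule, for their role, position, level or direction, after their values were seen. Alternatives were quantile normalization, trimmed-mean rescaling, a filter of 5 RPKM or none, 0.1 as pseudocount, no trend, each library left out, a block on the title suffix, and voom on recovered reads; chosen after the data were seen was voom with gene lengths solved from the values, which brings in Lox.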

Additional observations from a re-analysis of the deposited data

How the results depend on the processing

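At an FDR of 0.05 limma called 0 genes higher and 0 lower (536 and 919 at an unadjusted p under 0.05), and voom on recovered reads likewise called 0 and 0. Leaving out each library in turn gave 0 to 111 genes higher, 0 to 195 lower and 0 to 1 member, Lox, called. The calls came without KO replicate 1 (111 higher, 195 lower) and without KO replicate 2 (57 higher, 82 lower), and Lox was called in both; without a WT library the calls were 0. With a replicate block from the title suffix the calls were 0 higher, 0 lower and 0 members, and Lox had a log2 change of -0.88 (limma adjusted p = 0.152); the suffix marks no stated pair, and the deviations of same-suffix libraries had a correlation of -0.0959 across genes. Lox could not be fitted in voom at its GENCODE length; with solved lengths, an alternative added after the data were seen, its log2 change was -0.90 (limma adjusted p = 0.0977). Lox, Loxl1, Loxl2 and Loxl4 kept a negative sign in every alternative that held them. The summed level in KO was 0.654 to 0.686 times that in WT with a library left out and 0.679 times with trimmed-mean rescaling.

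Loxl3 changed sign: 0.026 with quantile normalization, 0.012 with trimmed-mean rescaling, and -0.31 to 0.30 with a library left out. With a library left out the log2 change also changed sign for Aoc1 (-0.0025 to 0.53), Atox1 (-0.37 to 0.022), Col3a1 (-0.28 to 0.070), Dcn (-0.10 to 0.35), Fam53b (-0.27 to 0.35), Fbln5 (-0.25 to 0.15), Gata1 (-0.90 to 0.0099), Gstt1 (-0.35 to 0.29), Plod2 (-0.079 to 0.65) and Rac3 (-0.29 to 0.32), and for Rac3 with a pseudocount of 0.1 (-0.017) and with voom (-0.10 at both lengths). The cause was not tested.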
